A study of Mus musculus with 4 samples.

Results

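The genes of glycolysis and of pyruvate and lactate handling were followed in whole mouse hearts that lack both miR-1 genes, miR-1-1 and miR-1-2, and in control hearts, which the series describes as littermates for P2.5. They were chosen by name from a list of 39 symbols, of which 37 had a row in the deposited tables. Of these, 36 had at least 1 FPKM in any library (fragments per kilobase of transcript per 1000000 fragments), out of 12161 such genes among 22552 rows. Poly-A RNA was sequenced from 4 groups of 1 library each. These were the double knockout (dKO) and the control labelled dHET at postnatal day 2.5 (P2.5), and the same genotypes at embryonic day 15.5 (E15.5), all of the strain labelled Sv129. The P2.5 control is headed as heterozygous in its table, while the E15.5 control is headed WT although its sample is labelled dHET. The labels do not say whether a library holds 1 heart or several. With 1 library per group no test within a stage was possible, none across the stages was run, and every difference below is between 2 libraries.

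Glycolysis splits glucose into pyruvate in the cytosol and yields ATP without oxygen. Pyruvate is either reduced to lactate, which leaves the cell through proton-linked carriers of the monocarboxylate family, or carried into the mitochondrion, where the pyruvate dehydrogenase complex turns it into acetyl-CoA. The fetal heart relies strongly on glucose and lactate, and fatty acid oxidation takes over after birth, with a change from embryonic to muscle isoforms of several enzymes. In heart muscle miR-1 is one of the main microRNAs, and it lowers messenger RNAs whose 3' untranslated region pairs with its seed.

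The scaling totals recovered from the lowest FPKM values were 49900000 and 44600000 for the P2.5 dKO and dHET libraries, and 104000000 and 86500000 for the E15.5 dKO and dHET libraries. Among members with a single annotated transcript, these totals placed between 366 and 31900 fragments behind a P2.5 value and between 3790 and 32900 behind an E15.5 value. Changes are given as log2((FPKM dKO + 1)/(FPKM dHET + 1)), which understates the change of low genes. The median change of all genes with at least 1 FPKM was 0.062 in the P2.5 pair and -0.0073 in the E15.5 pair. Xist had 50.7 FPKM in P2.5 dKO hearts against 0.101 in P2.5 dHET hearts, the Y-linked Ddx3y was at 0 against 11.7 and the Y-linked Eif2s3y at 0.0113 against 36.1, so sex and genotype cannot be told apart at P2.5. Both E15.5 libraries held Y-linked RNA, with Ddx3y at 14.8 FPKM in dKO and 15.3 in dHET, and Eif2s3y at 25.1 and 28.6. Ventricular markers marked the tissue as heart, with Myl2, the ventricular light chain, at 8550 and 7059 FPKM in the P2.5 dKO and dHET libraries and at 3177 and 3375 in the E15.5 pair.

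Stretches nearly identical to the transcripts of several members lie elsewhere in the genome. Gapdh, which makes the enzyme that oxidises glyceraldehyde phosphate and is used by every cell, had 0.211 FPKM in P2.5 dKO hearts and 0.0546 in P2.5 dHET hearts, with 0.320 and 0.244 in the E15.5 pair. It was the only member with a row that stayed below 1 FPKM. An alignment of its transcript to the build NCBIM37 found 31 other regions, of at least 100 bases and at least 98% identity each, that together cover 88.2% of its length. The same search covered 95.7% of Pgk1, 94.7% of Pgam1, 85.6% of Eno1 and 65.1% of Gpi1, each with 1 to 3 such regions. No other member had copies over as much as 50% of its transcript. The treatment of reads with several matches is not given in the sources used here, so the values of these 5 genes are uncertain, and they are named as genes with copies below.

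In the P2.5 pair, 6 of 35 members reached 1.5-fold in favour of the dKO library and 0 in favour of dHET, where 3.33% of 12139 genes were higher and 1.32% lower. Phosphofructokinase Pfkm was left out of this count because its P2.5 row carries the authors' flag for a failed estimate. The 6 were Slc16a3, Aldoc, Pgam1, Eno1, Pkm2 and Pdk3, of which Pgam1 and Eno1 are genes with copies. Just inside the threshold lay Pdk3 at 1.52-fold and just outside lay Pfkl at 1.47-fold. The median change of the 35 members was 0.23, and 24 of them lay above 0, as did 60.2% of all genes. In whole-heart RNA a different number of cells of a type and a different amount of RNA per cell cannot be told apart.

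**Figure D1:**
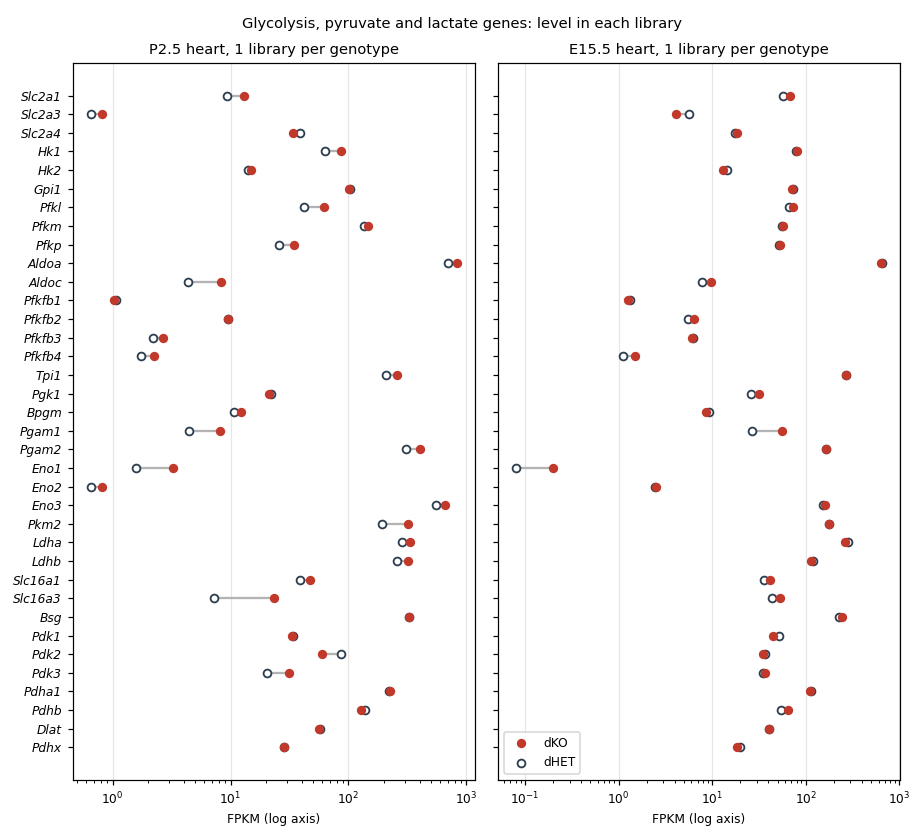
FPKM of each member (log axis) in the dKO library (filled) and the dHET library (open), at P2.5 on the left and E15.5 on the right, with 1 library per point and no error bars. The widest P2.5 gap is that of Slc16a3, at 23.5 FPKM in dKO and 7.27 in dHET, and the widest gap of a well-expressed gene at E15.5 is that of Pgam1, at 56.0 and 26.5.

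The largest difference was in lactate transport. Slc16a3 (chromosome 11, 120809797 to 120820314, mm9) encodes MCT4, the carrier through which glycolytic cells export lactate. It had 23.5 FPKM in the P2.5 dKO library against 7.27 in the dHET library, a log2 change of 1.57. In the authors' deposited table this is a called difference between the 2 libraries, with a log2 fold change of 1.69, a standard error of 0.33 implied by the test statistic, and q = 0.000193. It was the only member called there at P2.5, where the call covers 0.428% of genes. In the E15.5 pair it had 53.6 FPKM in dKO and 44.1 in dHET, a change of 0.28 that the authors' deposited table does not call. Slc16a1, which encodes MCT1, a carrier that can bring lactate in or out, had 47.0 FPKM in P2.5 dKO hearts and 38.8 in P2.5 dHET hearts, with 41.6 and 36.0 in the E15.5 pair. Basigin (Bsg), the membrane partner that both carriers need to reach the surface, had 328 FPKM in P2.5 dKO hearts and 329 in P2.5 dHET hearts, a change of -0.0024.

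Slc16a3 thus made up 33.4% of the summed FPKM of the 2 carriers in the P2.5 dKO library and 15.8% in the P2.5 dHET library. At E15.5 the shares were 56.3% in dKO and 55.0% in dHET. A share within a library does not depend on how the 2 tables were scaled. By this measure the P2.5 dKO library lay between the P2.5 dHET library and both E15.5 libraries. Reads were single at P2.5 and paired at E15.5, so a difference in share between the stages cannot be told apart from read layout.

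Pkm2 (chromosome 9, 59504414 to 59527182), the row for the muscle-type pyruvate kinase gene that makes the M1 and M2 isoforms, had 317 FPKM in the P2.5 dKO library against 193 in the dHET library, a change of 0.71. Both E15.5 libraries were at 176 FPKM, a change of 0.0020. The row joins both isoforms, so the balance between them was not measured. Aldoc (chromosome 11, 78137699 to 78140262), the brain-type aldolase, had 8.30 FPKM in the P2.5 dKO library and 4.36 in the dHET library (0.79), and 9.82 and 7.88 FPKM at E15.5 (0.29). Aldoa, the main aldolase of muscle, was far more abundant, with 828 FPKM in P2.5 dKO hearts and 697 in P2.5 dHET hearts, so Aldoc made up 0.993% and 0.622% of the pair's sum. Pdk3 (chromosome X, 91009954 to 91077434), one of the kinases that switch pyruvate dehydrogenase off, had 31.4 FPKM in the P2.5 dKO library and 20.3 in the dHET library (0.61), with 36.3 and 34.8 in the E15.5 pair (0.060).

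At P2.5 the authors' deposited table calls none of Pkm2, Aldoc and Pdk3, with q of 0.927, 0.60 and 0.808 for a comparison of 2 libraries. The implied standard errors of their log2 fold changes were 0.34, 0.37 and 0.28, where the table gives 0.72, 0.93 and 0.63. These errors come from the authors' model and not from replicates. Neither Pkm2 nor Pdk3 reached 1.5-fold when the P2.5 libraries were rescaled to the same sum (0.54 and 0.45). Pdk3 is X-linked, and the P2.5 libraries differ in sex. Of 412 X-linked genes measured at P2.5, 13 passed 1.5-fold in the dKO direction (3.16%), and their median change was -0.026. The other X-linked members, Pgk1, Pfkfb1 and Pdha1, had changes of -0.058, -0.031 and 0.023.

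**Figure D2:**
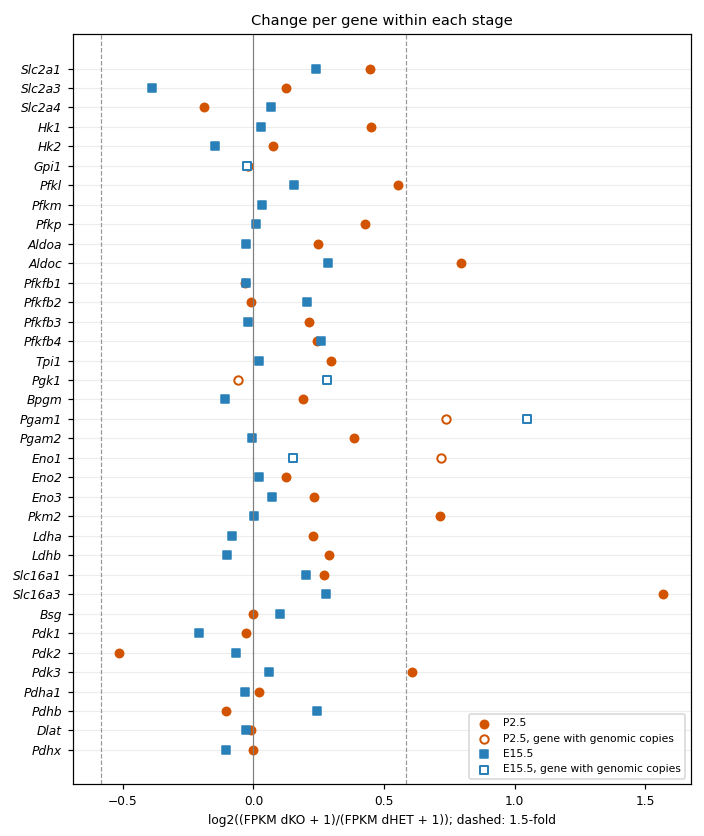
Log2 change of each member, dKO over dHET, at P2.5 (circles) and E15.5 (squares), with open symbols for the genes with genomic copies and dashed lines at 1.5-fold. At P2.5 the points of Slc16a3, Aldoc, Pgam1, Eno1, Pkm2 and Pdk3 lie beyond the right line, and at E15.5 the only point beyond it is that of Pgam1.

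The 3' untranslated regions of members were searched for words that pair with the miR-1 seed. The word ACATTCC occurred in 1 of 36 members, where 11% of 11708 measured genes with an annotated region have it, and CATTCCA in 6 of 36, where 12.8% have it. The 8-base word ACATTCCA, which holds both, occurred in Pfkfb4 alone, against 4.26% of all genes. The 6 sites are shown because they are all the occurrences of these words in the longest annotated region of a member. Each is written 5′ to 3′ along the transcript with the word in capitals, from NCBIM37.
Slc16a3, chr11:120819609-120819637, plus strand: gggaaccgcgtCATTCCAaagtggatctg
Pgam1, chr19:41992687-41992715, plus strand: gggggcatagtCATTCCAgtggagagtgg
Eno2, chr6:124710654-124710682, minus strand: ccatgtggcttCATTCCAagatgacccag
Pfkfb2, chr1:132593359-132593387, minus strand: attttctttgcCATTCCAgtaactttcct
Pfkfb3, chr2:11396088-11396116, minus strand: gatgtgggttcCATTCCAtttccacagcc
Pfkfb4, chr9:108933195-108933224, plus strand: ctctcactaagACATTCCActgtggccctg

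Of the 6 members with a word, Slc16a3 and Pgam1 were among those at least 1.5-fold higher at P2.5. Pfkfb4, with the longest word, had 2.25 FPKM in P2.5 dKO hearts and 1.74 in P2.5 dHET hearts, with 1.52 and 1.1 in the E15.5 pair, changes of 0.24 and 0.26. Pkm2, Aldoc, Pdk3 and Eno1 had none of the words. Over all measured genes the median change of carriers of the 8-base word was 0.093 in the P2.5 pair and 0.047 in the E15.5 pair, against 0.062 and -0.0092 for genes without it. For CATTCCA, the word of Slc16a3 and Pgam1, carriers had medians of 0.042 and 0.0094, against 0.066 and -0.0099 for genes without it, so at P2.5 the carriers lay lower. For ACATTCC the medians were 0.069 and 0.023, against 0.063 and -0.011. A word in this region is a description of the sequence and not a shown site.

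Promoters were searched for ACGTG, the core of the element bound by hypoxia-inducible factors, which are known to drive many glycolytic genes. The windows, from RefSeq on GRCm38.p6, run from 250 bases before to 50 bases after a start site, and both strands were read, so that CACGTG counts once per strand. A window was found for 36 of the 39 names, and 18 of these 36 had the word in at least 1 window, against 21.8% of all 27025 genes. A gene with more windows has more places for the word. By window, 22 of 56 member windows (39.3%) had it, against 19.6% of all 32851 windows. Both backgrounds hold all RefSeq genes, without the filter of 1 FPKM, so they are not matched to the members for expression. The share among genes measured in these hearts was not computed. Among the 6 members at least 1.5-fold higher at P2.5, 5 had it, all but Eno1. Of the 18 with the word, 16 were counted at P2.5, all but Gapdh and Pfkm, and 11 of these did not reach 1.5-fold. They include Ldha, Pgk1 and Pdk2, the member with the lowest P2.5 change. The windows of the 4 higher members without genomic copies are shown, 5′ to 3′ along the gene, with ACGTG or its reverse complement in capitals.
Slc16a3, chr11:120948817-120949116, plus strand: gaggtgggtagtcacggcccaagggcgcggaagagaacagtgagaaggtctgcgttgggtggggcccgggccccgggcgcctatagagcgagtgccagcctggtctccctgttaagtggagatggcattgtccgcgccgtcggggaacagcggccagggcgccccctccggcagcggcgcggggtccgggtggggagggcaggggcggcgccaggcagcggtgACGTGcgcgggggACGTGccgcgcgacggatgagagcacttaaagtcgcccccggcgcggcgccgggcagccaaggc
Pkm2 (RefSeq Pkm), chr9:59656977-59657276, plus strand: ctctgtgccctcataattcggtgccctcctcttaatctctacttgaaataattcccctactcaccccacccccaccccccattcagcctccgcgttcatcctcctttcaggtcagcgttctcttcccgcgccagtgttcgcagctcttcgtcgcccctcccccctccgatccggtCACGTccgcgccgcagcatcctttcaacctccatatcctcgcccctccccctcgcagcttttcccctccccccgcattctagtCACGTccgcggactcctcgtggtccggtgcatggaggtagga
Aldoc, chr11:78322823-78323122, plus strand: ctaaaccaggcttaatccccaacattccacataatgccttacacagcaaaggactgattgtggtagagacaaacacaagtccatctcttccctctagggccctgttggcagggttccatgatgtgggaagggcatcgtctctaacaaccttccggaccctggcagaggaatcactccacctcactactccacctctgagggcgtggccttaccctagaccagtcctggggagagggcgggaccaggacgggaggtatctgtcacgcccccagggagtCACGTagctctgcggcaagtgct
Pdk3, chrX:93832101-93832400, minus strand: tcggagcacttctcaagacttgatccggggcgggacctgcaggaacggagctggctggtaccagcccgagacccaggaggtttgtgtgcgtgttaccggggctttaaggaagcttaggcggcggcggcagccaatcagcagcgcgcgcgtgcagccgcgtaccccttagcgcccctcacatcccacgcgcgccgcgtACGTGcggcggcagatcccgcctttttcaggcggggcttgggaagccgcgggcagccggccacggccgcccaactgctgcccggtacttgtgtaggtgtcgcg

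In the Slc16a3 window the word starts 27 and 14 bases before the start site, and in the Pdk3 window 53 bases before it. In the Pkm window it lies 75 bases before the start site and again from base 9 after it, and in the Aldoc window from base 28 after it. A second window of Aldoc and of Pkm, from another annotated start, had no match. Of the fixed list of 25 other hypoxia response genes, 21 were measured, with 2 at least 1.5-fold higher and 0 lower at P2.5 and a median change of 0.088, close to the 0.062 of all genes, of which 3.33% were higher. These were Fam162a, a mitochondrial protein gene (210 FPKM in dKO and 108 in dHET, 0.95), and the carbonic anhydrase Car9 (1.41 and 0.492 FPKM, 0.69). Vegfa, the endothelial growth factor, had 78.6 FPKM in dKO and 72.3 in dHET (0.12). Hif1a itself had 47.6 FPKM in P2.5 dKO hearts and 41.4 in P2.5 dHET hearts (0.20), with 59.7 and 61.1 in the E15.5 pair (-0.034).

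The first steps of glycolysis, from hexokinase to aldolase, which trap glucose and split it, had 6 of 7 members above 0 at P2.5, with a median of 0.43 and a range of -0.023 to 0.79. Hexokinase Hk1 had 86.3 FPKM in the dKO library and 62.9 in the dHET library (0.45), while the insulin-responsive Hk2 had 14.9 and 14.1 (0.076). The liver-type phosphofructokinase Pfkl had 62.2 FPKM in dKO and 42.1 in dHET (0.55), and the platelet-type Pfkp 34.7 and 25.6 (0.43). Pfkm, the muscle type, is listed at 147 and 136 FPKM under the failed flag. Gpi1, the isomerase between the first kinases and a gene with copies, had 101 FPKM in dKO and 103 in dHET. At E15.5 the 8 members of these steps ranged from -0.15 (Hk2, 12.9 FPKM in dKO and 14.4 in dHET) to 0.29 (Aldoc), with Hk1 at 0.027, Pfkl at 0.15, Pfkp at 0.0078 and Pfkm at 0.032.

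In the later steps, from triose phosphate to pyruvate, 8 of 9 members lay above 0 at P2.5 with a median of 0.30. The most abundant were the muscle isoforms. Eno3, the muscle enolase, had 652 FPKM in the P2.5 dKO library and 556 in the dHET library (0.23). Pgam2, the muscle phosphoglycerate mutase, had 401 and 306 FPKM (0.39), and triose phosphate isomerase Tpi1 had 258 and 210 (0.30). Bpgm, which makes the bisphosphoglycerate that loosens oxygen from haemoglobin and is known from red cells, had 12.3 and 10.7 FPKM (0.19). The neuronal enolase Eno2 was below 1 FPKM in both P2.5 libraries, at 0.807 and 0.656. At E15.5 the same genes differed less, with Eno3 at 0.072, Pgam2 at -0.0061, Tpi1 at 0.020, Bpgm at -0.11 and Eno2 at 0.022.

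Pgam1, the widely expressed mutase, carried the one difference of at least 1.5-fold at E15.5, among 36 members, where 0.478% of 12131 genes were higher and 0.709% lower. It had 56.0 FPKM in the E15.5 dKO library against 26.5 in the dHET library, a change of 1.05, and 8.14 against 4.48 FPKM at P2.5, a change of 0.74. The authors' deposited table calls it between the E15.5 libraries, with q = 2.96e-08, as the only member among calls that cover 0.866% of genes there, but not between the P2.5 libraries (q = 0.717). Its transcript matches 3 other regions over 94.7% of its length, and the part of reads from these regions in its values was not tested. Eno1, with 3.22 and 1.57 FPKM in the P2.5 dKO and dHET libraries and 0.201 and 0.0807 in the E15.5 pair, is in the same position, and the standard error implied by the authors' table for its P2.5 log2 fold change is 8.36. Pgk1, the kinase that makes the first ATP of the later steps and another gene with copies, had 31.6 and 25.8 FPKM in the E15.5 dKO and dHET libraries (0.28) and 21.0 and 22.0 in the P2.5 pair (-0.058).

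The shares of the lactate dehydrogenase genes differed little between the genotypes, while both levels were higher in the P2.5 dKO library. Ldha, whose subunit favours the making of lactate, had 330 FPKM in the P2.5 dKO library and 282 in the dHET library (0.23). Ldhb, the heart-type subunit that favours its use, had 318 and 260 (0.29). Ldha made up 50.9% of the pair's sum in the P2.5 dKO library and 52.0% in the dHET library, and 70.2% and 69.9% in the E15.5 dKO and dHET libraries. Within each stage the shares of the genotypes were close, while the E15.5 and P2.5 shares lay far apart.

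Of the glucose carriers, Slc2a1 (GLUT1, the fetal and basal carrier) had 13.0 FPKM in the P2.5 dKO library and 9.30 in the dHET library (0.45), and 68.1 and 57.5 at E15.5 (0.24). Slc2a4 (GLUT4, the insulin-regulated muscle carrier) lay on the other side at P2.5, with 33.9 FPKM in dKO and 38.9 in dHET (-0.19), and had 18.2 and 17.3 at E15.5 (0.067). Slc2a3 (GLUT3) was below 1 FPKM at P2.5, and at E15.5 had 4.09 FPKM in dKO against 5.66 in dHET (-0.39), the lowest change of any member at that stage. Slc2a1 made up 27.3% of the summed FPKM of the carriers in the P2.5 dKO library and 19.1% in the dHET library, and 75.3% and 71.4% in the E15.5 dKO and dHET libraries. As with Slc16a3, the share in the P2.5 dKO library lay on the E15.5 side of that in the P2.5 dHET library.

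**Figure D3:**
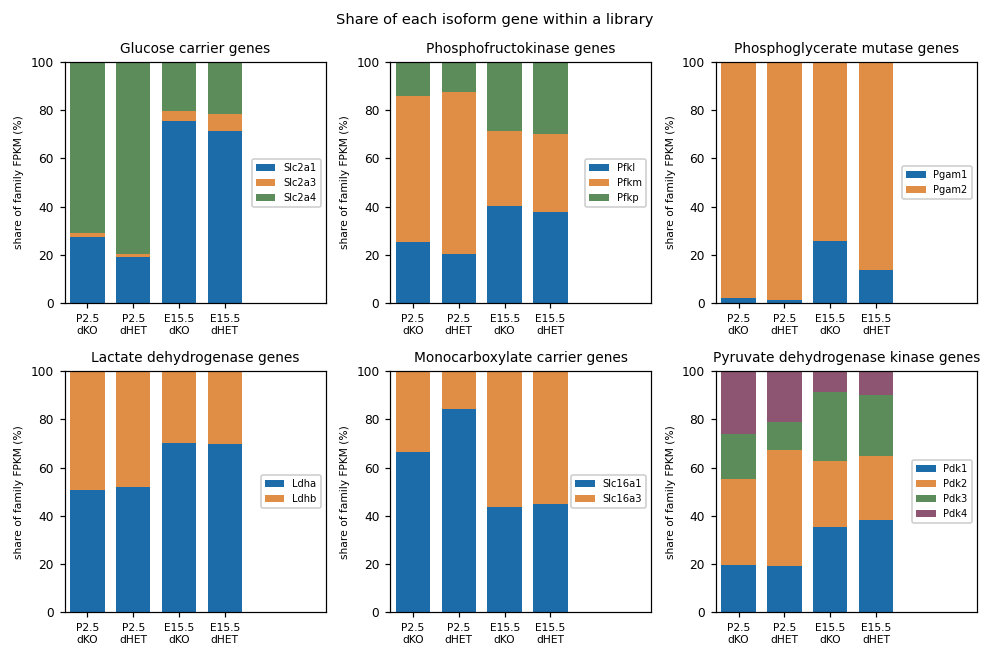
Share of each gene in the summed FPKM of its family within a library (percent, stacked to the whole), for the dKO and dHET libraries at P2.5 and then at E15.5. Slc16a3 takes 33.4% in the P2.5 dKO library and 15.8% in the P2.5 dHET library, and Slc2a1 takes 27.3% and 19.1%, while Ldha differs by about 1 percentage point.

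Phosphofructokinase had the same order of shares. Pfkm, with its flagged P2.5 value, made up 60.3% of the family's FPKM in the P2.5 dKO library and 66.8% in the dHET library, against 31.2% and 32.1% in the E15.5 dKO and dHET libraries. Pfkl made up 25.5% and 20.6% of the P2.5 dKO and dHET sums, with 40.2% and 38.0% in the E15.5 pair. Hk1 made up 85.3% of the hexokinase sum in the P2.5 dKO library and 81.7% in the dHET library, against 86.2% and 84.6% in the E15.5 pair. Eno3 made up 99.4% of the enolase sum in P2.5 dKO hearts and 99.6% in P2.5 dHET hearts, against 98.3% and 98.4% at E15.5. The P2.5 difference lay mostly in Eno1, a gene with copies, at 0.491% in dKO and 0.281% in dHET. At E15.5 Eno1 made up 0.123% and 0.0521%, and Eno2 1.54% and 1.58%, so the enolase make-up did not move toward that of E15.5. In 9 of 10 families the share of the gene that led in the P2.5 dHET library lay on the E15.5 side in the P2.5 dKO library, the exception being lactate dehydrogenase. Without the mutase and enolase families, which hold genes with copies, and phosphofructokinase, with its flagged value, the count was 6 of 7. This count was made after the shares were seen, and it covers only the leading gene of each family. Of the other genes in the 9 families, Pdk4, Pfkfb1, Pfkfb4 and Eno1 lay on the side away from E15.5. The rest lay on the E15.5 side, but in a family of 2 genes the second share is fixed by the first. The leading gene was picked by its share in the P2.5 dHET library, which is also the reference. That choice by itself favours lower shares in the other libraries, and no expected count was computed. All 10 families were read in the same 2 P2.5 libraries, which differ in sex, so they are not independent, and the differences were as small as -0.22 percentage points for Eno3.

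The bifunctional enzymes of the Pfkfb family set the level of fructose 2,6-bisphosphate, the strongest activator of phosphofructokinase. Their changes lay between -0.031 and 0.24 at P2.5 and between -0.030 and 0.26 at E15.5. Pfkfb2, the heart isoform, had 9.45 FPKM in the P2.5 dKO library and 9.53 in the dHET library, and Pfkfb3, the isoform of growing and hypoxic cells, had 2.70 and 2.19. At E15.5 Pfkfb2 had 6.45 and 5.47 FPKM and Pfkfb3 had 6.16 and 6.27, in dKO and dHET. Pfkfb1, the liver and muscle isoform, stayed between 1.02 and 1.32 FPKM in all 4 libraries.

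At the pyruvate dehydrogenase step the kinases lay on opposite sides of 0 at P2.5. Pdk2, the most abundant of them there, had 60.2 FPKM in the dKO library and 86.5 in the dHET library, a change of -0.52 and the lowest of any member at P2.5. The authors' deposited table gives it a log2 fold change of -0.52 with an implied standard error of 0.28 and does not call it. Pdk1 had 33.4 and 34.1 FPKM (-0.031). Pdk4, the fasting-induced kinase, which is not on the member list, had 44.2 and 38.1 (0.21). In the E15.5 dKO and dHET libraries it had 10.9 and 13.4 FPKM (-0.27). Pdk2 thus made up 35.6% of the kinase family's FPKM in the P2.5 dKO library and 48.3% in the dHET library, and Pdk3 18.6% and 11.3%. At E15.5 Pdk2 made up 27.3% in dKO and 26.6% in dHET, and Pdk3 28.6% and 25.5%.

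The subunits of the complex itself stayed within -0.10 and 0.023 at P2.5. Pdha1, the catalytic alpha subunit, had 224 FPKM in dKO and 221 in dHET, and Pdhb, its beta subunit, 128 and 137. Dlat, the acetyl-transferring core, had 56.6 and 57.0, and Pdhx, which anchors the shared dehydrogenase, had 28.6 in both. At E15.5 Pdhb had 63.9 FPKM in dKO and 53.9 in dHET (0.24), while Pdha1, Dlat and Pdhx lay between -0.10 and -0.028. The mitochondrial pyruvate carrier genes Mpc1 and Mpc2 had no row under these names. Under the older names, Brp44 (Mpc2) had 142 FPKM in P2.5 dKO hearts and 116 in P2.5 dHET hearts (0.28), with 47.5 and 44.7 in the E15.5 pair (0.087). Brp44l (Mpc1) had 6.49 and 4.33 FPKM in the P2.5 pair and 0.233 and 0.421 in the E15.5 pair, and a copy elsewhere in the genome covers 74.8% of its transcript.

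The rest of the pathway was read from a list of 42 further genes, of which 25 had at least 1 FPKM in any library. Of these 25, 5 passed 1.5-fold in the dKO direction at P2.5 and 0 in the other, with a median change of 0.25, and 0 passed in either direction at E15.5, with a median of 0.087. Over all genes the P2.5 shares were 3.33% higher and 1.32% lower with a median of 0.062, and the E15.5 shares 0.478% and 0.709% with a median of -0.0073. The largest was Aldoart1, with 17.0 FPKM in P2.5 dKO hearts and 8.0 in P2.5 dHET hearts, an intronless relative of Aldoa known from testis, which was at 0.713 and 0.603 in the E15.5 pair. The part of Aldoa reads in the values of Aldoart1 was not tested. Galm, which interconverts the anomers of sugars, had 7.70 and 3.96 FPKM at P2.5 in dKO and dHET (0.81). Ldhd, the dehydrogenase for D-lactate, had 2.94 and 1.45 (0.68), and the ADP-dependent glucokinase Adpgk had 8.33 and 5.0 (0.64). At E15.5 these 3 genes had changes of 0.18, 0.21 and 0.11.

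Other lists gave the setting at P2.5. Fatty acid oxidation had 0 of 22 genes past 1.5-fold in either direction and a median of 0.13, and the tricarboxylic acid cycle had 0 of 17 and a median of 0.17. Of 28 measured regulators, 1 was higher and 1 lower, with a median of -0.018. The median of all genes was 0.062. The higher one was Esrrb, an orphan nuclear receptor (6.55 FPKM in dKO and 3.18 in dHET, 0.85), and the lower one was Mlxipl, which encodes the glucose-sensing factor ChREBP (2.71 and 5.13, -0.72). Myc, a driver of growth and of glycolytic genes, had 5.24 FPKM in P2.5 dKO hearts and 5.43 in P2.5 dHET hearts, with 7.16 and 7.88 in the E15.5 pair. At E15.5 none of these lists had a gene past 1.5-fold, and their medians lay between -0.031 and -0.0073.

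**Figure D4:**
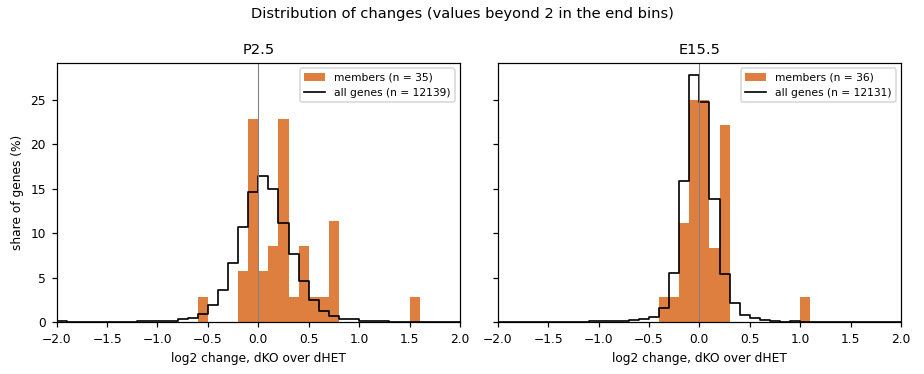
Share of genes (percent) by log2 change, dKO over dHET, in bins of 0.1, for the members (bars) and for all genes with at least 1 FPKM in any library (line), at P2.5 on the left and E15.5 on the right. The members' median is 0.23 at P2.5, where that of all genes is 0.062, and 0.021 at E15.5, where that of all genes is -0.0073.

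Genes listed as markers of cell types differed between the same P2.5 libraries. Which cells of the heart expressed them was not measured. All 4 atrial markers, Nppa, Myl7, Myl4 and Sln, passed 1.5-fold in the dKO direction, with a summed level of 1252 FPKM in dKO against 254 in dHET, and the natriuretic peptide gene Nppa at 1021 and 182 FPKM. Of 5 smooth muscle markers Acta2, Cnn1 and Myl9 did (3 of 5, with 2561 against 1160 FPKM in sum). Tagln (16.0 FPKM in dKO and 17.1 in dHET, -0.090) and Myh11 (6.41 and 4.30, 0.48) did not. The sum was mostly Acta2, at 1692 and 658 FPKM, and Myl9, at 792 and 464. Erythroid markers had 2 of 4 measured members higher (404 against 226), the globin genes Hba-a1 and Hbb-b1, and macrophage markers 2 of 6 lower, C1qc and Cd68 (24.8 against 33.1). Ventricular markers had 1 of 7 measured members higher, Tnnt2 (29058 against 21930), with Myh6 left out because the authors flagged it as too deep to estimate. Fibroblast markers had 2 of 6 lower, Dcn and Lum (742 against 687). Skeletal muscle markers had Tnnt3 higher and Tnni2 lower of 5 (1524 against 1167). Endothelial markers had 0 of 5 past the fold (278 against 251), and 0 of 1 measured platelet marker and 0 of 1 neuronal or glial marker passed it. The embryonic and neonatal myosins of skeletal muscle, Myh3 and Myh8, and the neural Tubb3, Elavl3, Snap25 and Sox10 were below 0.5 FPKM in all 4 libraries. The part of atrial, smooth muscle, erythroid and macrophage content in the changes of Slc16a3, Pkm2, Aldoc and Pdk3 was not tested. At E15.5, 2 of 4 atrial markers were higher, Nppa and Sln (2335 against 1698 FPKM), and of 5 smooth muscle markers Acta2 was higher and Myh11 lower (2330 against 1549). Of the skeletal markers Tnni2 was lower there, and no other measured marker passed the fold. The ventricular marker Myh7 was left out at E15.5 under the flag that Myh6 had at P2.5, with 0 FPKM listed in dKO and 1335 in dHET.

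Between the stages, which have no library in common, 3 of 35 members were at least 1.2-fold higher in dKO at both, namely Slc16a3, Aldoc and Pgam1, where 3.24% of 12113 genes were. None was 1.2-fold lower at both, where 1.23% of genes were. Only Pgam1 reached 1.5-fold at both, against 0.297% of genes. The 95% intervals implied by the authors' deposited table for the E15.5 log2 fold changes of Slc16a3 and Aldoc, -0.027 to 0.59 and -0.12 to 0.76, include 0. The median change of all members was 0.021 at E15.5, with 21 of 36 above 0, as were 47.8% of all genes.

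The P2.5 values depend on the scale used. When each library was rescaled to the same sum, the median change of all genes moved by more than 0.1 on the log2 scale, to -0.093, and that of the members to 0.091. Over all genes 301 were then higher and 622 lower, against 404 and 160 on the deposited scale. The count of members at least 1.5-fold higher was then 4, namely Slc16a3, Aldoc and the copied genes Pgam1 and Eno1, and Pdk2 was counted as lower. Pkm2, with a rescaled change of 0.54, and Pdk3, with 0.45, no longer reached 1.5-fold, and Pdk3 also missed it after centring on the median change of all genes (0.54). The rescaled sum was 1000000 with the pseudocount still at 1, so the pseudocount weighed less, and these counts do not isolate the scale. At E15.5 the summed FPKM was 231250 in dKO and 231586 in dHET. At E15.5 the rescaling gave 129 genes higher and 140 lower, against 58 and 86 on the deposited scale.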

How the data were processed

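Per the submitters' processing notes, TopHat, Bowtie and Cufflinks were used with the mouse build mm9, and no versions are given. Per the labels, reads of 100 bases were single at P2.5 and paired at E15.5. The deposited values are FPKM by the authors, in 1 table per stage with 22552 rows. Log2 fold change, test statistic, p-value and q-value are the authors' deposited values and compare 2 libraries. At E15.5 the deposited fold change has dKO below the line and was negated here. Each table had 86 rows displaced by commas in gene names, which were realigned on the position column. Rows flagged OK, NOTEST or LOWDATA were used.

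Changes were computed within a stage with a pseudocount of 1 for genes reaching 1 FPKM in any of the 4 libraries, and a gene was counted from 1.5-fold. Standard errors are the authors' log2 fold change over their test statistic. Scaling totals came from low FPKM values of single-transcript genes, of which 72.1% to 74.3% were whole fragments within 0.05. They need not equal mapped reads, and they give counting depth, not replicate error. Genomic copies were found with BLAST+ 2.17.0 for the transcript with the longest coding sequence from GENCODE M1. Promoters are RefSeq's. Python 3.11.15, pandas 2.3.3 and NumPy 2.4.6 were used, and the counting of changes was tested on simulated data. Members, lists and tests were chosen with earlier results of these data known. Named genes are the members past 1.5-fold at either stage or 1.2-fold at both, the isozyme families, Pdk4, Hif1a, Myc, Brp44 and Brp44l, the sex genes, and up to 4 genes past 1.5-fold from each other list. Vegfa, Myl2, Tagln and the low markers were named outside this rule. Alternatives covered the pseudocount, the filter, the scaling, the flags, the copies and the fold.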

Additional observations from a re-analysis of the deposited data

How the results depend on the processing

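No paired analysis was possible because each group has 1 library, and for the same reason no replicate could be left out. The 6 members at least 1.5-fold higher at P2.5 became 2 with a pseudocount of 5 and 1 at a fold of 2. The count of lower members at P2.5, 0 as reported, became 1 after rescaling each library to a sum of 1000000 and 1 once GC content and transcript length were adjusted for, an alternative chosen after seeing the data. Rescaling moved the members' median change at P2.5 to 0.091. At E15.5 the 1 higher member became 2 with a pseudocount of 0.1, and 0 without Gapdh and Pgam1 or without all 5 members with genomic copies, which was also chosen after seeing the data. The other 62 results across these alternatives stayed within 1.5 times the count or 0.1 of the median. Over all genes, the P2.5 split of 404 higher and 160 lower became 287 and 235 after centring on the median change, and 301 and 622 after rescaling. In the rescaled setting the pseudocount stayed at 1 and so weighed less. The change of Slc16a3 at P2.5 was 1.22 with a pseudocount of 5. Members had a median GC content of 53.1%, and all genes 50.7%.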
